A study of Mus musculus with 12 samples.

Results

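Oxidative phosphorylation subunits were followed across the 4 genotypes of a study of mouse pancreatic islets, which hold the endocrine cells that secrete insulin, glucagon and somatostatin. Members were all genes whose only symbol in the array annotation begins with Nduf, Uqcr, Atp5 or Cox4 to Cox8, or is Cyc1 or Sdha to Sdhd. The rule gave 88 genes of 17097 with a single symbol, measured by 149 of 45141 probe sets, and each gene was read from the probe set that was brightest on average over the 12 arrays. They comprise 35 complex I subunits, 7 complex I assembly factors whose symbols begin with Ndufaf, 4 complex II, 8 complex III, 17 complex IV and 17 complex V genes. A filter left out genes with a mean level under 3.43 (log2), the 25th percentile, so that 86 members remained among 12825 genes tested. The muscle form Cox8b, between 3.13 and 3.64 over the 12 arrays, and the testis form Cox7b2, between 2.95 and 3.26, fell under it and were not tested. The set also holds Ndufs5-ps, a pseudogene by its symbol, and Ndufa4, whose protein is now placed in complex IV.

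Mice were 12 weeks old and fed standard chow. Islets came from 4 groups of 3 arrays: hIAPP-TgxBACE2-KO, which carried the human islet amyloid polypeptide transgene and lacked BACE2, hIAPP-Tg, which carried the transgene alone, BACE2-KO, which lacked BACE2 alone, and WT (wild type). BACE2 is a membrane-bound aspartyl protease made in beta cells. Islet amyloid polypeptide, or amylin, is secreted with insulin, and its human form can aggregate into amyloid. The labels give the strain B6;129P2-Bace2tm1Bdes/J for every group, WT included. The sources used here do not give the promoter that drives the transgene, or whether islets of several mice were pooled. The p-values therefore cover the variation among these 12 arrays, which may be partly technical. Either genetic change and any strain background bred along with it cannot be told apart.

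Oxidative phosphorylation passes electrons from NADH through complex I, and from succinate through complex II, to ubiquinone, on to complex III, cytochrome c and complex IV, where oxygen is reduced. The protons pumped on the way drive complex V, the ATP synthase. In beta cells the ATP made from glucose closes ATP-sensitive potassium channels, which starts insulin secretion. Most subunits are encoded in the nucleus, as all genes followed here are, and several complex IV subunits have ubiquitous and muscle or testis forms. Nuclear respiratory factor 1 (NRF1) and the ETS factor GABPA are known to bind promoters of many of these genes.

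The arrays shared a scale, with medians from 4.22 to 4.35, the lowest in hIAPP-Tg replicate 2. Defining islet hormones were high in all 12 arrays, with Ins2 (insulin) at 13.93 to 14.03, Gcg (glucagon) at 13.05 to 13.22 and Sst (somatostatin) at 12.14 to 12.87. Exocrine acinar RNA varied within groups: the mean of 10 acinar markers ran from 9.53 to 10.42 in hIAPP-TgxBACE2-KO, 9.69 to 10.44 in hIAPP-Tg, 9.78 to 11.03 in BACE2-KO and 8.93 to 11.24 in WT arrays. The targeted gene does not check the labels, since Bace2 averaged 10.94 ± 0.08 in BACE2-KO and 11.09 ± 0.16 in WT arrays (SD, n = 3 each; limma adjusted p = 0.941). Its probes may lie outside the deleted part, and genotypes rest on the labels.

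Promoter motifs were counted as a description. Of the 88 members, 70 had a promoter in the RefSeq table (GRCm38.p6). Within the 250 bases before the start site, the NRF1 motif (GCGCA, any base, then GCGC) was searched on both strands. It stood in 13 of 70 (18.6%), against 4.23% of all 27025 genes in the table and 8.36% of the 10334 of them tested here. The ETS motif CCGGAAG stood in 12 of 70 (17.1%), against 7.83% and 14.2%. The ERR motif TCAAGGTCA stood in 1 member (1.43%, against 0.422% and 0.319%) and the MEF2 motif (CTA, any 4 bases, then TAG) in 1 (1.43%, against 3.7% and 3.44%). A match is a description of letters and not of binding. The 3 stretches below are examples and do not stand for classes of genes. Sdha is the flavoprotein of complex II (chr13:74350241-74350490, minus strand). Cox6a1 is the ubiquitous form of a complex IV subunit (chr5:115348959-115349208, minus strand), and Cox7a1 is the muscle form of another (chr7:30183921-30184170, plus strand). Capitals mark the NRF1 and ETS motifs, which do not overlap here. Of these Sdha has 3 and 0, Cox6a1 has 2 and 1, and Cox7a1 has 0 and 0. Cox7a2, the ubiquitous form paired with Cox7a1, also had neither motif. Of 12 complex IV promoters, 1 had the NRF1 motif and 2 had the ETS motif, Cox6a1 among them in each case.
Sdha: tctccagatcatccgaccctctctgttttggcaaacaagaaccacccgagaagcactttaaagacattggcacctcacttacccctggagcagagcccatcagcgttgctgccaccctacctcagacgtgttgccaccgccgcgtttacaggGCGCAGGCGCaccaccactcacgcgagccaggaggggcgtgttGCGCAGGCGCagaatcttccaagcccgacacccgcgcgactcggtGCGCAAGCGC
Cox6a1: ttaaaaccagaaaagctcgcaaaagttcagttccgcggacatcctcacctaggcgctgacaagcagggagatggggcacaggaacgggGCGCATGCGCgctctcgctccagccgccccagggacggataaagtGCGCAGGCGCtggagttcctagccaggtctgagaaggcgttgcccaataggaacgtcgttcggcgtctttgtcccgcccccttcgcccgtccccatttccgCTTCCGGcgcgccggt
Cox7a1: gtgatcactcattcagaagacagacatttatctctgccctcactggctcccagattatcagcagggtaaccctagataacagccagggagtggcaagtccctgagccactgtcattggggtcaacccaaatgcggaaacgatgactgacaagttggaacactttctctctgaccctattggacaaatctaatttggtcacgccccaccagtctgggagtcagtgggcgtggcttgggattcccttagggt

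No member passed the test in any comparison. The comparisons ask whether the transgene, BACE2 loss, or both together changed islet expression of the respiratory chain, and whether each change depends on the other. A gene was called at a Benjamini-Hochberg adjusted p under 0.05 in limma. With 0 of 86 members called, the share of all genes called was 0.0156% in hIAPP-Tg against WT, 0.125% in BACE2-KO against WT, 0.133% in hIAPP-TgxBACE2-KO against WT, 0.101% in hIAPP-TgxBACE2-KO against hIAPP-Tg and 0% in hIAPP-TgxBACE2-KO against BACE2-KO. It was 0.0078% for the interaction of both changes, 0.92% for BACE2 loss averaged over the transgene and 0.0078% for the transgene averaged over BACE2. Shares as low as these mean that 0 called members is near the background.

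At an unadjusted p under 0.05 the members were counted too. There were 0 of 86 in hIAPP-Tg against WT (4.52% of all genes), 5 in BACE2-KO against WT (6.28%), 4 in hIAPP-TgxBACE2-KO against WT (8.43%), 4 in hIAPP-TgxBACE2-KO against hIAPP-Tg (8.37%) and 2 in hIAPP-TgxBACE2-KO against BACE2-KO (4.44%). There were 0 for the interaction (2.4%), 6 for averaged BACE2 loss (11.4%) and 1 for the averaged transgene (7.59%). The 3 arrays of each group did not overlap for 2 members in hIAPP-Tg against WT (9.16% of all genes), 8 in BACE2-KO against WT (12.9%), 4 in hIAPP-TgxBACE2-KO against WT (14.9%), 7 in hIAPP-TgxBACE2-KO against hIAPP-Tg (11.1%) and 5 in hIAPP-TgxBACE2-KO against BACE2-KO (9.68%). None of these counts exceeded the share among all genes.

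The data also bound how far the members could have moved. The 95% interval of the difference lay wholly within 0.5 log2 of 0 for 81 of 86 members in hIAPP-Tg against WT (94.2%, against 66.8% of all genes tested). It did so for 81 in BACE2-KO against WT (94.2%, against 67.9%), 80 in hIAPP-TgxBACE2-KO against WT (93%, against 65.2%), 79 in hIAPP-TgxBACE2-KO against hIAPP-Tg (91.9%, against 64.7%) and 84 in hIAPP-TgxBACE2-KO against BACE2-KO (97.7%, against 68.4%). The median within-group SD was 0.125 for the members, against 0.17 over all genes tested. Most members were bright, far above the array medians, and neither the shares nor the SDs were matched for level. The median difference of the members was 0.03, -0.02, 0.02, -0.01 and 0.04 log2 in the same 5 comparisons, beside -0.03, 0.01, 0, 0.03 and -0.01 over all genes. Comparisons that share a group share its arrays, so these values are not independent of each other.

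**Figure D1:**
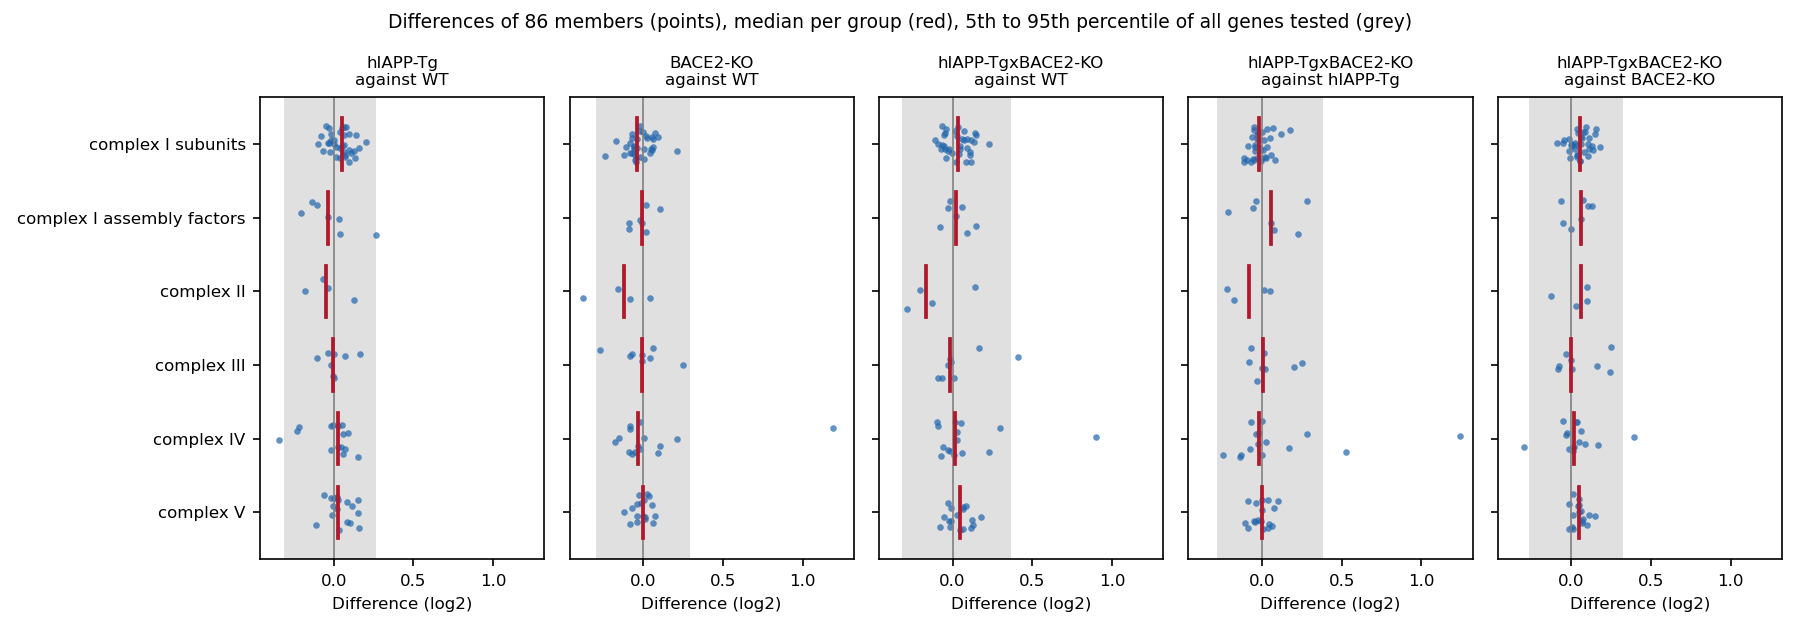
Fitted log2 difference of each of the 86 tested members (blue points) in 5 comparisons, in rows by respiratory complex, with the median of each row in red and the 5th to 95th percentile of all 12825 genes in grey. Most points lie near 0, and the point furthest right in BACE2-KO against WT (1.19) and in hIAPP-TgxBACE2-KO against hIAPP-Tg (1.24) is Cox6a2 of complex IV.

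Complex I takes electrons from NADH. Its 35 subunit genes moved little: the lowest and highest differences were -0.10 and 0.20 in hIAPP-Tg against WT, -0.24 and 0.21 in BACE2-KO against WT, and -0.11 and 0.18 in hIAPP-TgxBACE2-KO against hIAPP-Tg. In hIAPP-Tg against WT 23 of 35 were higher by value and 10 lower (median 0.05), while 41.2% of all genes were higher. Without hIAPP-Tg replicate 1 the direction turned, with 8 higher and 27 lower (median -0.03). In BACE2-KO against WT 13 were higher and 22 lower (median -0.04), while 52.1% of all genes were higher. Without BACE2-KO replicate 2 there were 8 higher and 26 lower (median -0.05). Other arrays weakened the direction when left out. There were 15 higher and 19 lower without WT replicate 3 (median -0.02), and 14 higher and 21 lower without BACE2-KO replicate 1 (median -0.01). The median stayed negative with each array left out in turn. In hIAPP-TgxBACE2-KO against BACE2-KO 28 of 35 were higher by value (median 0.05), while 45.8% of all genes were. Without hIAPP-TgxBACE2-KO replicate 1 that turned too, with 7 higher and 27 lower (median -0.02).

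Ndufa12, an accessory subunit, had levels of 10.91, 10.82 and 10.81 in hIAPP-TgxBACE2-KO and 10.88, 10.83 and 10.77 in BACE2-KO arrays, against 10.68, 10.64 and 10.69 in hIAPP-Tg and 10.52, 10.45 and 10.88 in WT arrays. All BACE2-lacking arrays stood above every hIAPP-Tg array and above WT replicates 1 and 2, and WT replicate 3 overlapped them. The difference was 0.21 in BACE2-KO against WT (SE 0.10, adjusted p = 0.79), 0.18 in hIAPP-TgxBACE2-KO against hIAPP-Tg and 0.19 for averaged BACE2 loss (SE 0.07, adjusted p = 0.281). Without WT replicate 3 the averaged difference was 0.26 and passed (adjusted p = 0.0349). In BACE2-KO against WT the Ndufa12 probe set with a mean level of 9.46 differed by 0. The dimmest, with a mean level of 3.98 near the filter level of 3.43, differed by -0.45. The mean of its probe sets, which takes in the dimmest, differed by -0.08, so the direction rests on the brightest probe set.

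Ndufa5, a subunit of the arm that takes up electrons, differed by 0.20 in hIAPP-Tg against WT (SE 0.11, adjusted p = 0.95), where the groups did not overlap, and was the complex I subunit with the smallest p there. Ndufa7 followed at 0.14. In BACE2-KO against WT, Ndufv3, beside the NADH-binding site, differed by -0.17 (SE 0.09) and Ndufa3 by -0.24 (SE 0.12), each with adjusted p = 0.846 and groups that did not overlap. Ndufs7, which holds the last iron-sulfur cluster before ubiquinone, differed by -0.10 in hIAPP-Tg against WT and -0.09 in hIAPP-TgxBACE2-KO against BACE2-KO. Ndufa4l2, a hypoxia-induced relative of Ndufa4, had group means of 4.13, 4.18, 3.98 and 4.02 in hIAPP-TgxBACE2-KO, hIAPP-Tg, BACE2-KO and WT arrays, and Ndufa4 means of 11.13, 11.13, 11.06 and 11.10.

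Among the complex I assembly factors, Ndufaf1, which takes part in building the membrane arm, had levels of 7.20, 7.26 and 7.20 in hIAPP-TgxBACE2-KO arrays, against 6.97, 6.74 and 7.10 in hIAPP-Tg arrays. BACE2-KO arrays had 7.12, 7.09 and 7.06, against 7.14, 6.99 and 7.09 in WT arrays. The hIAPP-TgxBACE2-KO arrays lay above the other 9. Their difference from hIAPP-Tg was 0.28 (SE 0.11, adjusted p = 0.48), and in BACE2-KO against WT it was 0.02. The interaction, which asks whether these differ, was 0.27 (95% interval -0.06 to 0.60, adjusted p = 1). Ndufaf2 differed by 0.27 in hIAPP-Tg against WT (SE 0.15) and Ndufaf6 by -0.21 (SE 0.14), each with adjusted p = 0.95.

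Complex II, succinate dehydrogenase, also serves the citric acid cycle and has 4 subunits, all tested. Sdhc, a membrane anchor, had levels of 8.97, 8.80 and 8.92 in hIAPP-TgxBACE2-KO arrays, against 9.16, 8.96 and 9.22 in hIAPP-Tg arrays. It had 8.53, 9.06 and 8.81 in BACE2-KO arrays, against 9.24, 9.15 and 9.15 in WT arrays. The BACE2-KO and WT arrays did not overlap, and hIAPP-Tg replicate 2 fell just inside the range of the hIAPP-TgxBACE2-KO arrays. The difference was -0.38 in BACE2-KO against WT (SE 0.12, unadjusted p = 0.00725, adjusted p = 0.508), -0.22 in hIAPP-TgxBACE2-KO against hIAPP-Tg and -0.30 for averaged BACE2 loss (95% interval -0.48 to -0.12, adjusted p = 0.151). Without BACE2-KO replicate 1, the lowest array, the difference from WT was -0.25 (adjusted p = 0.89).

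Sdha, the flavoprotein that oxidises succinate, had levels of 10.25, 10.27 and 10.34 in hIAPP-TgxBACE2-KO arrays, against 10.44, 10.43 and 10.51 in hIAPP-Tg and 10.46, 10.42 and 10.60 in WT arrays. BACE2-KO arrays had 10.45, 10.34 and 10.45, of which replicate 2 equalled the highest hIAPP-TgxBACE2-KO array. The 3 arrays with both changes were below all hIAPP-Tg and WT arrays. The difference from WT was -0.21 (SE 0.07, adjusted p = 0.373) and from hIAPP-Tg -0.17 (SE 0.07, adjusted p = 0.496), while BACE2-KO differed from WT by -0.08. Its next brightest probe set differed by -0.12 from WT and -0.06 from hIAPP-Tg. Sdhb, the iron-sulfur subunit, differed by 0.04 and Sdhd, the other anchor, by -0.16 in BACE2-KO against WT. The median of the 4 genes was -0.12 in that comparison and -0.17 in hIAPP-TgxBACE2-KO against WT, with 3 of 4 lower in each, and it stayed below 0 with each array left out, beside 0.01 and 0 over all genes.

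Complex III passes electrons from ubiquinol to cytochrome c, and its 8 members lay between -0.27 and 0.25 in BACE2-KO against WT. Uqcrq, a small subunit next to cytochrome b, had levels of 11.31, 11.08 and 11.16 in hIAPP-TgxBACE2-KO, 11.05, 10.89 and 10.86 in hIAPP-Tg, 10.87, 11.13 and 11.06 in BACE2-KO and 10.55, 10.84 and 10.92 in WT arrays. The hIAPP-TgxBACE2-KO arrays lay above all hIAPP-Tg and WT arrays, and BACE2-KO replicate 1 lay within the range of WT. It differed by 0.41 in hIAPP-TgxBACE2-KO against WT (SE 0.11, unadjusted p = 0.00196, adjusted p = 0.265), by 0.25 in BACE2-KO against WT and by 0.25 in hIAPP-TgxBACE2-KO against hIAPP-Tg. Averaged over the transgene, BACE2 loss gave 0.25 (95% interval 0.09 to 0.41, adjusted p = 0.188). Its other 3 probe sets averaged 4.15, 3.73 and 3.15, near or under the filter level of 3.43. They differed by 0.01, -0.07 and 0.27 in hIAPP-TgxBACE2-KO against WT, 0.06, -0.06 and -0.01 in hIAPP-TgxBACE2-KO against hIAPP-Tg, and 0.33, 0 and 0.23 in BACE2-KO against WT.

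Uqcrc2, a core subunit, had levels of 10.65, 10.50 and 10.48 in hIAPP-TgxBACE2-KO and 10.66, 10.58 and 10.49 in hIAPP-Tg arrays, and 10.16, 10.47 and 10.27 in BACE2-KO against 10.64, 10.53 and 10.55 in WT arrays. BACE2-KO arrays were below the other 9. The difference was -0.27 in BACE2-KO against WT (SE 0.09, unadjusted p = 0.00787, adjusted p = 0.525), -0.03 in hIAPP-TgxBACE2-KO against hIAPP-Tg and 0.24 in hIAPP-TgxBACE2-KO against BACE2-KO (adjusted p = 0.962). The interaction was 0.24 (95% interval -0.03 to 0.51, unadjusted p = 0.0726, adjusted p = 1), the smallest p of any member there. Its other probe set, nearly as bright, differed by -0.11 in BACE2-KO against WT. Uqcrb, another small subunit, differed by 0.25 in hIAPP-TgxBACE2-KO against BACE2-KO (SE 0.11, adjusted p = 0.962), and Cyc1, cytochrome c1, by -0.08, a direction that turned (0.01) without hIAPP-TgxBACE2-KO replicate 1.

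**Figure D2:**
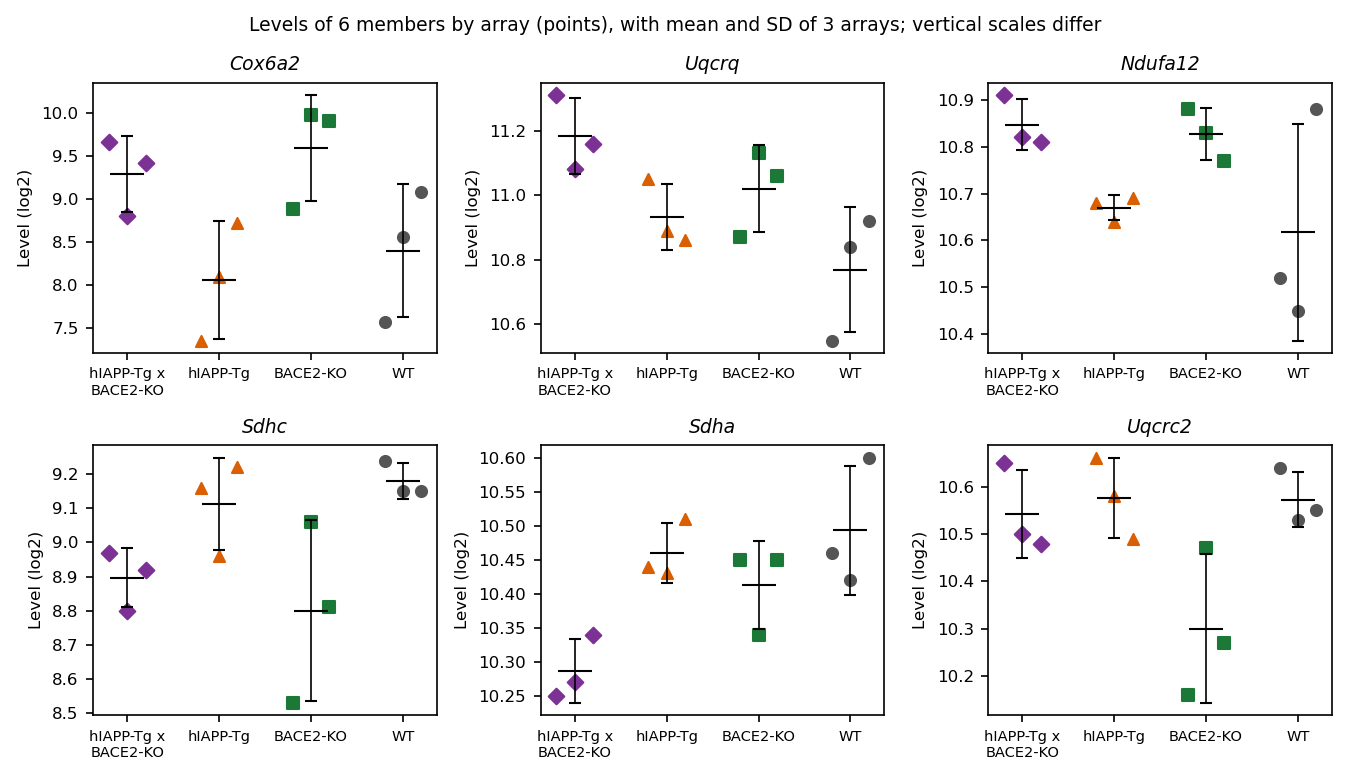
Log2 level of 6 members in each array (points), with the mean and SD of 3 arrays per group (black); the vertical scale differs between panels and does not start at 0. Cox6a2 spans 7.35 to 9.98 over the 12 arrays, whereas Sdha spans 10.25 to 10.60.

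Complex IV, cytochrome c oxidase, held the member with the largest difference. Of its 15 tested members 5 were higher and 10 lower by value in BACE2-KO against WT (median -0.03), and without WT replicate 3 there were 9 higher and 5 lower (median 0.03). Cox6a2, the heart and skeletal muscle form of subunit VIa, was higher by value without BACE2 in islets with and without the transgene, while Cox6a1, the ubiquitous form, stayed flat. Cox6a2 had levels of 9.66, 8.80 and 9.42 in hIAPP-TgxBACE2-KO arrays, against 7.35, 8.09 and 8.72 in hIAPP-Tg arrays, with no overlap. It had 8.88, 9.98 and 9.91 in BACE2-KO arrays, against 7.56, 8.55 and 9.08 in WT arrays, where BACE2-KO replicate 1 was below WT replicate 3. Of the 6 arrays without BACE2, 4 were above the highest array with it.

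The Cox6a2 difference was 1.24 in hIAPP-TgxBACE2-KO against hIAPP-Tg (2.36-fold, SE 0.42, unadjusted p = 0.012, adjusted p = 0.429) and 1.19 in BACE2-KO against WT (2.29-fold, SE 0.42, unadjusted p = 0.0148, adjusted p = 0.658). Averaged over the transgene it was 1.22 (2.32-fold, 95% interval 0.57 to 1.86, unadjusted p = 0.00142), the smallest p of any member, and the adjusted p of 0.0965 missed the threshold. With the replicate number as a block the same difference passed (adjusted p = 0.0223), and with the acinar marker mean as a covariate it passed too (adjusted p = 0.0445). Leaving out single arrays gave 1.01 to 1.39 for the averaged difference and, for BACE2-KO against WT, 0.78 without WT replicate 1 and 1.55 without BACE2-KO replicate 1. The averaged transgene difference was -0.32 (95% interval -0.97 to 0.33). Its within-group SD of 0.641 was the largest of the 86 members. Cox6a2 has 1 probe set on the array and no promoter in the RefSeq table.

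Skeletal muscle was checked through 4 markers (Ckm, Acta1, Myh4 and Tnnt3), whose mean lay between 3.63 and 3.91 in hIAPP-TgxBACE2-KO, 3.73 and 3.91 in hIAPP-Tg, 3.58 and 3.72 in BACE2-KO, and 3.68 and 3.76 in WT arrays. These values lie near the filter level of 3.43, and 2 of the 4 markers passed the filter. They were not higher in BACE2-KO than in WT arrays. Replicate 1 of hIAPP-TgxBACE2-KO, with the highest Cox6a2 of its group, had 3.91 against 3.63 and 3.64 in replicates 2 and 3. Of 5 listed alpha cell markers, Gcg, Irx2 and Ttr are named on the array. Their mean was 10.82, 10.73 and 10.91 in hIAPP-TgxBACE2-KO arrays, against 10.54, 10.80 and 10.79 in hIAPP-Tg arrays. It was 10.75, 10.91 and 11.02 in BACE2-KO arrays, against 10.46, 10.55 and 10.72 in WT arrays. The BACE2-KO and WT arrays did not overlap, whereas the hIAPP-TgxBACE2-KO and hIAPP-Tg arrays did. Within WT the order of the arrays was that of Cox6a2, but not within the other groups. The beta cell marker mean had the order of Cox6a2 within hIAPP-Tg (9.79, 10.18 and 10.51) and BACE2-KO (10.40, 10.55 and 10.49), as did the delta cell mean. Neither did so within WT or hIAPP-TgxBACE2-KO. The mean of 7 endothelial markers had the order of Cox6a2 within WT (7.58, 7.70 and 7.81) and hIAPP-Tg arrays (7.47, 7.71 and 7.79). It also did within hIAPP-TgxBACE2-KO arrays (7.80, 7.58 and 7.70), but not within BACE2-KO arrays (7.69, 7.17 and 7.79). Its ranges overlapped between the groups. The part of alpha, beta, delta, endothelial or muscle cell content in the Cox6a2 difference was not tested. In whole islets, more cells of a type that express a gene and more RNA per cell cannot be told apart.

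The other paired forms of complex IV did not show a shift like that of Cox6a2. For averaged BACE2 loss Cox6a1 differed by -0.01 (95% interval -0.11 to 0.09), with group means of 12.20, 12.22, 12.23 and 12.23 in hIAPP-TgxBACE2-KO, hIAPP-Tg, BACE2-KO and WT arrays. Cox7a1, the muscle form of subunit VIIa, differed by 0.22 (95% interval -0.21 to 0.65) and Cox7a2, its ubiquitous form, by -0.01 (-0.15 to 0.13). Cox4i2, a form tied to oxygen sensing, differed by 0.19 (-0.03 to 0.41) and Cox4i1 by -0.06 (-0.15 to 0.04). Cox6b2, a testis form, differed by -0.16 (-0.41 to 0.08) and Cox6b1 by -0.02 (-0.17 to 0.14). Cox8c, a testis form, differed by 0.19 (-0.04 to 0.42) and Cox8a by -0.11 (-0.25 to 0.04).

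Cox7a1 had levels of 4.22, 3.88 and 4.0 in hIAPP-TgxBACE2-KO arrays, against 3.50, 3.40 and 3.61 in hIAPP-Tg arrays. These groups did not overlap, and the difference was 0.53 (SE 0.28, adjusted p = 0.658). WT replicate 3 stood at 4.61 against 3.31 and 3.28 in the other WT arrays, so BACE2-KO against WT gave -0.09. Cox4i2, Cox6b2 and Cox7a1 lie near the filter level, where differences can be compressed.

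**Figure D3:**
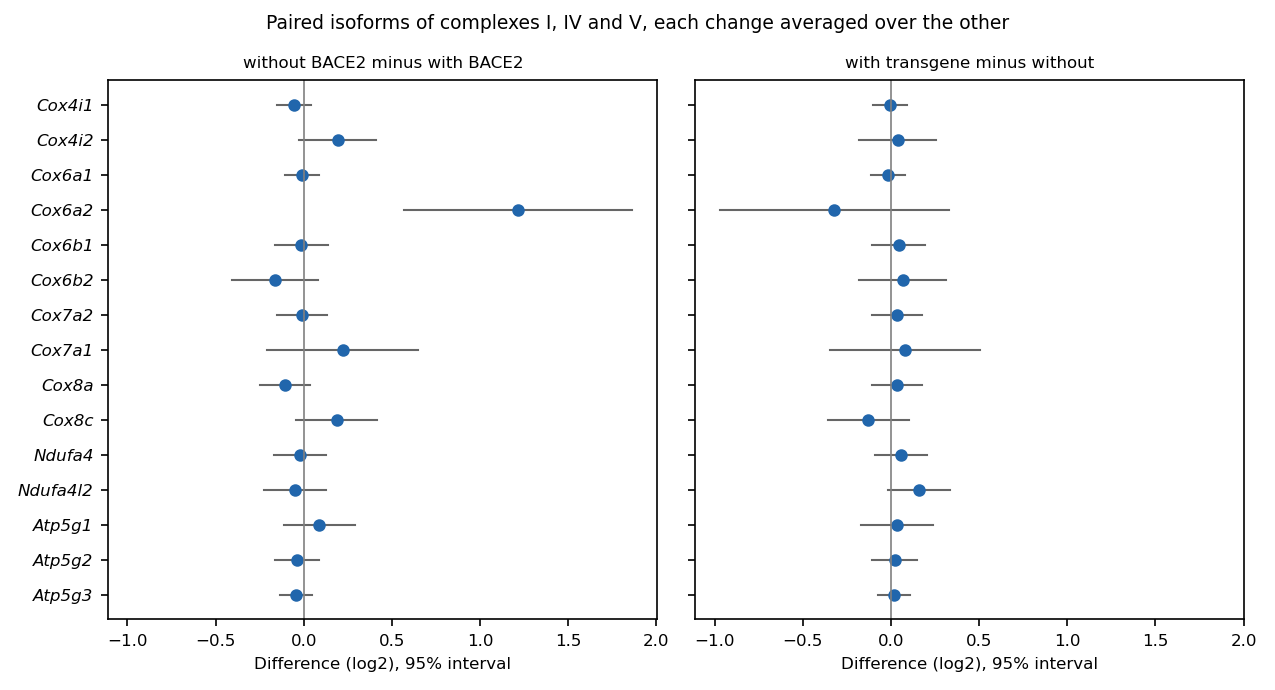
Difference (points) and 95% interval (lines), in log2 units, of genes that encode alternative forms of complex I, IV and V subunits, for BACE2 loss averaged over the transgene (left) and the transgene averaged over BACE2 (right). In the left panel the interval of Cox6a2 (0.57 to 1.86) excludes 0, and in the right panel every interval includes 0.

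The 17 members of complex V, the ATP synthase, stayed within 0.18 of 0 in all 5 comparisons of groups. They differed by -0.11 to 0.16 in hIAPP-Tg against WT, -0.12 to 0.07 in BACE2-KO against WT and -0.11 to 0.10 in hIAPP-TgxBACE2-KO against hIAPP-Tg. In hIAPP-TgxBACE2-KO against BACE2-KO 15 of 17 were higher by value (median 0.05), while 45.8% of all genes were. Without hIAPP-TgxBACE2-KO replicate 1 the direction turned, with 3 higher and 14 lower (median -0.03), and without BACE2-KO replicate 3 there were 10 higher. Atp5b, the catalytic beta subunit, averaged 11.33 ± 0.05 in hIAPP-Tg and 11.45 in WT arrays, a difference of -0.11 (SE 0.07, adjusted p = 0.95). Atp5pb, of the peripheral stalk, differed by 0.16 in the same comparison (SE 0.09), with groups that did not overlap. Atp5g1, Atp5g2 and Atp5g3, which encode the same mature c subunit of the rotor, differed by 0.09, -0.04 and -0.05 for averaged BACE2 loss, and each 95% interval included 0. Atp5g3 had the smallest within-group SD of all members (0.042).

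The mean over members varied more between arrays of a group than between groups. As a mean deviation from the 12-array mean over the 86 members, the arrays of hIAPP-TgxBACE2-KO ran from -0.06 to 0.15, of hIAPP-Tg from -0.05 to 0.11, of BACE2-KO from -0.04 to 0.01 and of WT from -0.06 to 0.07, so all groups overlapped. Replicate 1 of hIAPP-TgxBACE2-KO had the highest value of its group in 69 of 86 members (80.2%, against 34.6% of all genes tested). Replicate 1 of hIAPP-Tg did in 65 (75.6%, against 39.9%) and WT replicate 3 in 64 (74.4%, against 35.4%). In the BACE2-KO group no array led in more than 37 members.

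**Figure D4:**
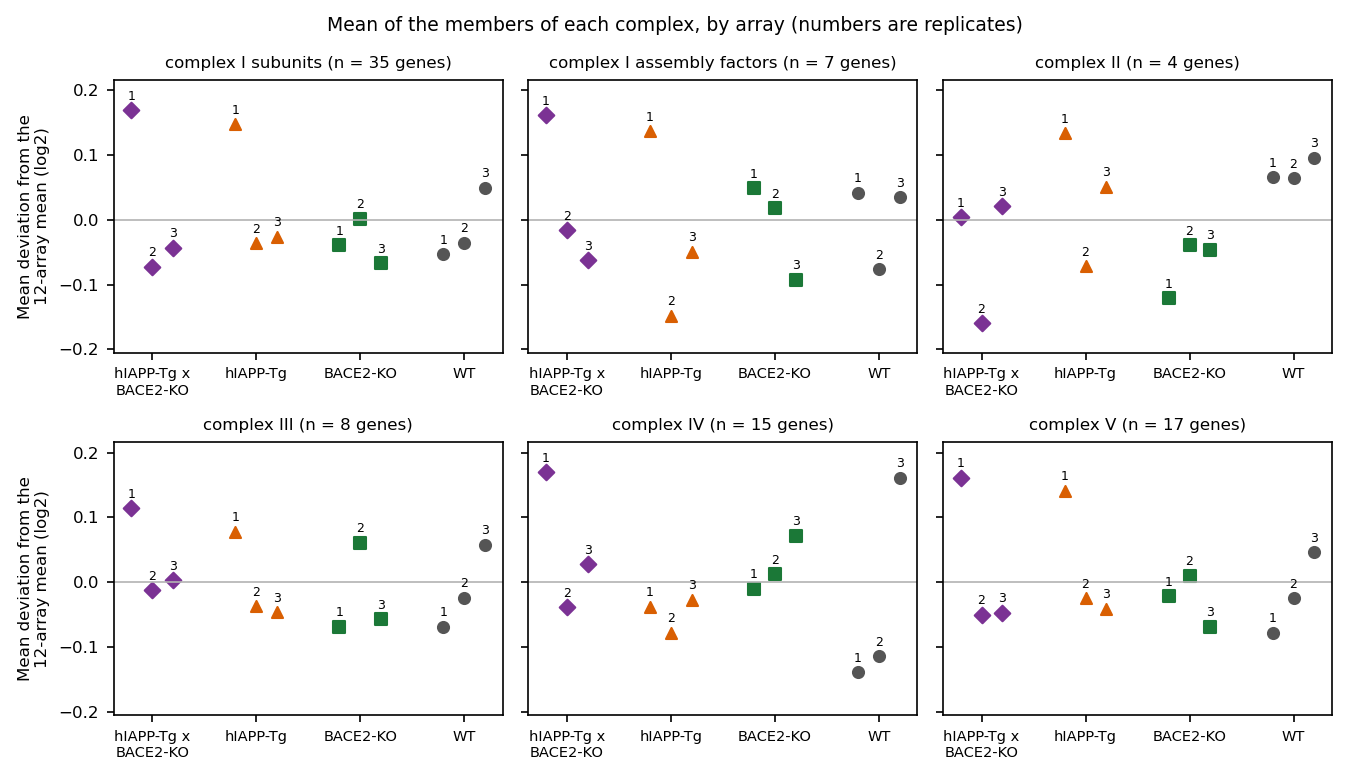
Mean log2 deviation from the 12-array mean over the tested members of each complex, 1 point per array, with replicate numbers beside the points. Replicate 1 of hIAPP-TgxBACE2-KO (0.17) and of hIAPP-Tg (0.15) stand highest for complex I subunits, and WT replicate 3 (0.16) stands with the highest for complex IV.

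After group means were removed, the value of a member over the 12 arrays correlated with the mean of the other members at a median Pearson r of 0.756, as a description of arrays that share preparation and scale. No such median was taken over all genes or over the related gene lists, so this value has no background beside it. The median was 0.852 for complex I subunits, 0.85 for complex V, 0.638 for complex III, 0.516 for complex IV and 0.179 for the 4 complex II genes. Ndufb8 (0.963), Ndufb2 (0.962) and Atp5j (0.954) followed the common pattern most closely. Against it ran Ndufs7 (-0.454), Cyc1 (-0.444), Atp5d (-0.387), Cox6b2 (-0.242) and Uqcrc1 (-0.218). Members with the NRF1 motif described above had a median r of 0.716 (n = 13) and those without it 0.825 (n = 55). The 5 genes outside the set whose deviations were most like the mean of the members were Orc2 (r = 0.987), Psma3 (0.98), Commd4 (0.977), Usp15 (0.971) and Eif3i (0.971), over 12 arrays. The acinar marker mean correlated with the mean of the members at r = -0.075 and the mean of the beta cell markers at r = -0.536, each with group means removed. The part of these markers in the differences above was not tested beyond the acinar covariate.

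Beyond the members, related mitochondrial genes were counted from fixed lists. Of 34 tested assembly factors outside the rule, 1 was called. Timmdc1, a membrane assembly factor of complex I, had 8.26, 8.10 and 8.30 in BACE2-KO arrays, against 6.77, 6.63 and 6.66 in WT arrays, and rose by 1.53 (SE 0.12, adjusted p = 0.000292). It also rose in hIAPP-TgxBACE2-KO against hIAPP-Tg, by 1.22 (adjusted p = 0.00109), and the annotation places it on chromosome 16, as it does Bace2. The complex I subunits and Ndufaf genes beside it had medians of -0.04 and -0.01 in BACE2-KO against WT. Of 73 mitochondrial ribosome genes none was called, and for averaged BACE2 loss 59 were higher by value (median 0.06), beside 35 of 86 members (median -0.02) and 55.4% of all genes (median 0.02). None of 14 citric acid cycle and pyruvate dehydrogenase genes, 11 regulators of mitochondrial biogenesis or 7 carriers was called in any comparison. At an unadjusted p under 0.05, where averaged BACE2 loss had 859 of 12825 genes higher and 609 lower (11.4% in all), it had 4 of 34 assembly factors outside the rule higher, Timmdc1 among them. It had 2 of 73 mitochondrial ribosome genes higher, 2 of 14 citric acid cycle genes lower, 2 of 11 regulators higher and 1 of 7 carriers higher.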

How the data were processed

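Islet RNA was hybridised to Affymetrix arrays. The deposited values are log2 levels, for which the submitters' processing notes name RMA (robust multi-array average, run by the authors) and affy. The sources used here do not give versions or a genome build. Probe sets were named from the platform annotation: 28898 carried 1 symbol, 551 several and 15692 were not listed. Promoters come from RefSeq (GRCm38.p6). Group means were estimated from the 12 arrays together with limma 3.58.1 in R 4.3.3 (eBayes with a variance trend). Its p-values were two-sided and adjusted over 12825 genes, and intervals are the fit's 95% intervals. The steps were tested on simulated data. Members, lists and comparisons were chosen with earlier results of these data known. Named were members from those with the smallest p per comparison and complex, isoform sets, complex II, Cyc1, members the filter left out, Bace2, called genes of related lists and the genes most like the members. Arrays hold no read depth, and their number limits precision. Alternatives were the filter, probe set choice, scaling, variance model, arrays fitted, replicate block, array weights, an acinar covariate and each array left out. Plots were drawn with matplotlib 3.10.9.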

Additional observations from a re-analysis of the deposited data

How the results depend on the processing

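The count of called members stayed at 0 under every alternative in 7 of 8 comparisons. For BACE2 loss averaged over the transgene it was 1 with the replicate block and 1 with the acinar covariate, Cox6a2 in each (1.22, adjusted p = 0.0223, and 1.202, adjusted p = 0.0445). It was also 1 without WT replicate 3, and 1 without that array and both replicates 1 of the transgenic groups, an alternative chosen after seeing the data, Ndufa12 in each (0.26, adjusted p = 0.0349, and 0.25, adjusted p = 0.047). Each array left out in turn gave 0 to 1 there. The replicate block changed no other call among members; over all genes it gave 205 calls against 118 for averaged BACE2 loss, 29 against 13 in hIAPP-TgxBACE2-KO against hIAPP-Tg and 27 against 17 in hIAPP-TgxBACE2-KO against WT. Deviations of same-numbered arrays of different groups correlated above 0.1 in 10 of 18 pairs (median 0.141), against 5 of 36 different-numbered pairs (median -0.07). Pairs of replicate 1 ran from 0.088 to 0.372, and those of replicate 2 from -0.129 to 0.137. The main fit did not use the numbers, and whether they mark a shared batch was not tested. The count of 0 for averaged BACE2 loss depends on that choice. The median difference of the members moved by less than the SD between arrays (0.085), yet changed sign under at least 1 alternative in all 8 comparisons, for example between -0.031 and 0.065 in hIAPP-Tg against WT and between -0.023 and 0.085 in hIAPP-TgxBACE2-KO against BACE2-KO. The 80 named differences gave 1895 values under the alternatives. Of these values, 1882 kept direction and side of the threshold, 4 passed it and 9 turned direction. With the mean over probe sets, Ndufa12 turned to -0.078 (BACE2-KO against WT), -0.017 (hIAPP-TgxBACE2-KO against WT) and -0.008 (averaged BACE2 loss), and Uqcrq to -0.048 (hIAPP-TgxBACE2-KO against BACE2-KO). For both genes that mean takes in dim probe sets, near or under the filter level. Without hIAPP-Tg replicate 2, Cox6b2 turned to -0.035 (hIAPP-Tg against WT; -0.035 to 0.28 over all arrays left out in turn) and 0.018 (interaction; -0.297 to 0.018). Cyc1 turned to 0.01 in the 3 settings without hIAPP-TgxBACE2-KO replicate 1 (-0.125 to 0.01 over all arrays left out in turn). Causes were not tested.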
